A study of Rattus norvegicus with 12 samples.

Results

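Glucose enters the heart muscle cell through facilitative transporters, is trapped by hexokinase and is either stored as glycogen or split by glycolysis to pyruvate, which is oxidised through the pyruvate dehydrogenase complex or exchanged with lactate. Most steps are catalysed by isoforms encoded by separate genes, and muscle, embryonic and housekeeping isoforms differ in how they are regulated. The genes examined here are 37 that encode glucose and lactate transporters, glycolytic enzymes, pyruvate dehydrogenase and its kinase and phosphatase, and the enzymes of glycogen synthesis and breakdown. They were chosen by gene name, and all 37 were found, with 45 transcripts, among 17301 gene names and 18752 transcripts.

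The cells were adult rat ventricular myocytes (ARVMs) of male Sprague-Dawley rats, kept after plating in a medium with insulin, transferrin, selenium, lipids and a contraction inhibitor. In 6 samples they carried an adenovirus that encodes human NR4A2 under the cytomegalovirus promoter (Ad-h-NR4A2), and in 6 a control adenovirus that encodes green fluorescent protein (Ad-GFP), each at 50 MOI. NR4A2 is an orphan nuclear receptor that binds DNA without a known ligand. RNA was taken 48 h after transduction, without a medium change in between, and ARVMs without virus were not analysed here. Expression is given as FPKM, the fragments of a transcript per kilobase relative to all fragments mapped, as the authors calculated them, so that levels can be set side by side between genes.

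Nr4a2 itself, the check of the labels, was at 0.626 to 1.40 FPKM in Ad-GFP samples and at 445 to 592 in Ad-h-NR4A2 samples, as far as human fragments align to the rat transcript. The low FPKM of a sample imply 18700000 to 27800000 fragments in Ad-GFP samples and 21600000 to 27100000 in Ad-h-NR4A2 samples. Of the 5 cardiomyocyte markers, Myh7 and Ryr2 were downregulated. Under 1.5-fold, Myh6 (log2 -0.56) and Tnnt2 (-0.26) were lower and Actn2 (0.22) was higher, at adjusted p of 1.14e-04, 0.00477 and 0.00344. The summed FPKM of the list was 8368 to 9933 in Ad-GFP and 7148 to 8224 in Ad-h-NR4A2 samples. Of 20 markers of fibroblasts, endothelium, smooth muscle, macrophages and lymphocytes, 15 could be tested. The summed FPKM of all 20 ranged from 39.4 to 71.5 in Ad-GFP and from 56.8 to 99.6 in Ad-h-NR4A2 samples. That of the macrophage markers was 6.04 to 17.2 and 37.0 to 44.5. For fibroblasts it was 9.04 to 30.1 and 5.80 to 26.4, and for endothelium 4.99 to 16.3 and 3.97 to 15.2. For smooth muscle it was 8.15 to 21.2 and 7.33 to 17.4. Most of the macrophage sum was Csf1r, a macrophage growth factor receptor, which was upregulated (means of 10.1 and 40.2 FPKM). The macrophage marker Cd68, at means of 0.463 and 0.482 FPKM, was not. C1qa and Cd163, with means of at most 0.183 FPKM, could not be tested. Col3a1 and Myh11 were downregulated. Col1a1 was lower in all 6 pairs and was called only with the sample number as a block (adjusted p of 0.0944, and 0.00616 with the block). Col1a2 was listed at 0 in all samples. In RNA of whole cultures, fewer cells of a type and less RNA per cell cannot be told apart, and the part of these shifts in the results that follow was not tested.

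NR4A receptors are known to bind as monomers to an element with the letters AAAGGTCA (NBRE), of which AGGTCA is the nuclear receptor core, and E-boxes (CANNTG) are bound by basic helix-loop-helix factors. These letters were sought on both strands in the RefSeq promoter windows of the GRCr8 build, from 250 bases before to 50 bases after an annotated start. For 34 of the 37 genes 38 windows were found. Slc2a4, Pgk1 and Pdp1 had none. The NBRE was present in 1.43% of all 33469 windows and, among the 37 genes, in that of Pfkfb2 alone. AGGTCA, which also lies within the NBRE, was present in 16.2% of all windows and in 6 of the 38, those of Aldoa, Dlat, Ldhb, Pdhb, Pfkfb2 and Tpi1. An E-box was present in 72.1% of all windows and in 25 of the 38. The windows of 5 genes are shown, with AGGTCA or its reverse complement in capitals: Pfkfb2 and Gys2, which hold an NBRE with its first base at -175 and -82 from the start, Slc16a3 and Eno3, with the highest log2 fold changes of FPKM + 0.1 among the 37 genes, and the 3 windows of Aldoa, whose transcripts changed in opposite directions. Gys2, a glycogen synthase gene outside the 37, is described further on.
Pfkfb2, chr13:44726922-44727221, minus strand: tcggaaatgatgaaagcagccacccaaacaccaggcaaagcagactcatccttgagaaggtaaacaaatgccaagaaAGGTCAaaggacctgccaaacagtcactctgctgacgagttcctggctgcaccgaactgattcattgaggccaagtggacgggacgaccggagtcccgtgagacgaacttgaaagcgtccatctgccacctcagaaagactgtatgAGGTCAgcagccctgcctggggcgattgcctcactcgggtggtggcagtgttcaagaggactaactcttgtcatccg
Gys2, chr4:177137187-177137486, minus strand: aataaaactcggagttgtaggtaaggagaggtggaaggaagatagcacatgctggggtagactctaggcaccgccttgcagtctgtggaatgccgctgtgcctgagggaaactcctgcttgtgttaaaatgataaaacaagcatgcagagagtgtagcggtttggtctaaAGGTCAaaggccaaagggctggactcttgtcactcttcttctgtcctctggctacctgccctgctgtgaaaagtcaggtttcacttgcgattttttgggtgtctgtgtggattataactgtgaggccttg
Slc16a3, chr10:106712078-106712377, plus strand: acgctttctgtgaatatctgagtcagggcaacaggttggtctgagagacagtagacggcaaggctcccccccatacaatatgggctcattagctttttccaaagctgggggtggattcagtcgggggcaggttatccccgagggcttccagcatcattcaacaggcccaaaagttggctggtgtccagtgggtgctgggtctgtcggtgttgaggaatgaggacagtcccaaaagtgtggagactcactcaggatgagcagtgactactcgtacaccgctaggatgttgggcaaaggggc
Eno3, chr10:55868936-55869235, plus strand: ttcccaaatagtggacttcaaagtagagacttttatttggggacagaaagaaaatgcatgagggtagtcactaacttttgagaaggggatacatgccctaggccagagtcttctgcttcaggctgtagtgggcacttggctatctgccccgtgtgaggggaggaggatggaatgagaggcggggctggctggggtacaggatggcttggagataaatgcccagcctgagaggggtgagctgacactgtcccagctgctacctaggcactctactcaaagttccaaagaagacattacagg
Aldoa, chr1:190837972-190838271, minus strand: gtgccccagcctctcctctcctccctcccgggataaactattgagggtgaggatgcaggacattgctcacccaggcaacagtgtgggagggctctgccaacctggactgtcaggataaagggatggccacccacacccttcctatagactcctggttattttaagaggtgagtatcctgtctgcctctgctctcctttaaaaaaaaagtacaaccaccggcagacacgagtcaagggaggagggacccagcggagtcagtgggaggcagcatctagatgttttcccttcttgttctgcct
Aldoa, chr1:190837599-190837898, minus strand: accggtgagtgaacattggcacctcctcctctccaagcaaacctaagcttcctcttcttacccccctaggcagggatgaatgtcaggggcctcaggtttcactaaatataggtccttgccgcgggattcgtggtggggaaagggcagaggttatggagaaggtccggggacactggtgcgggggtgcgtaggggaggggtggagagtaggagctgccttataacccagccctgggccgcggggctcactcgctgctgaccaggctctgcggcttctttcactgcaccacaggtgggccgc
Aldoa, chr1:190836728-190837027, minus strand: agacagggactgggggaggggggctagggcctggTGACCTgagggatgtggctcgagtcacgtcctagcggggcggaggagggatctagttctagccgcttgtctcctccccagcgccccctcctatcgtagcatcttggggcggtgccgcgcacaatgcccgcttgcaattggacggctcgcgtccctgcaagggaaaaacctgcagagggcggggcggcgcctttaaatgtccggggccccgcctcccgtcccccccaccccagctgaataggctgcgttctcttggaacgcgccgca
The Slc16a3 and Eno3 windows hold neither AGGTCA nor its complement, and of the Aldoa windows 1 does. The tables do not pair the Aldoa starts with the transcripts measured.

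Groups were compared on log2(FPKM + 0.1) with limma across 10950 genes, and p-values were adjusted after Benjamini and Hochberg. Genes that passed 0.05 and whose mean FPKM differed 1.5-fold or more between groups were called upregulated or downregulated. All 37 genes were tested. Of these, 15 were called (background 15.2% of all genes tested), 7 upregulated (background 7.94%) and 8 downregulated (background 7.24%). Without the 1.5-fold limit 26 of 37 had an adjusted p below 0.05 (background 40.9%), 13 higher (background 19.3%) and 13 lower (background 21.7%). Ad-GFP and Ad-h-NR4A2 samples did not overlap for 15 of 37 genes (background 21.5%). The median log2 fold change of the 37 was -0.01, and that of all genes tested -0.03. Several of the changes set isoforms of 1 step against each other, as described in the order of the pathway.

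**Figure D1:**
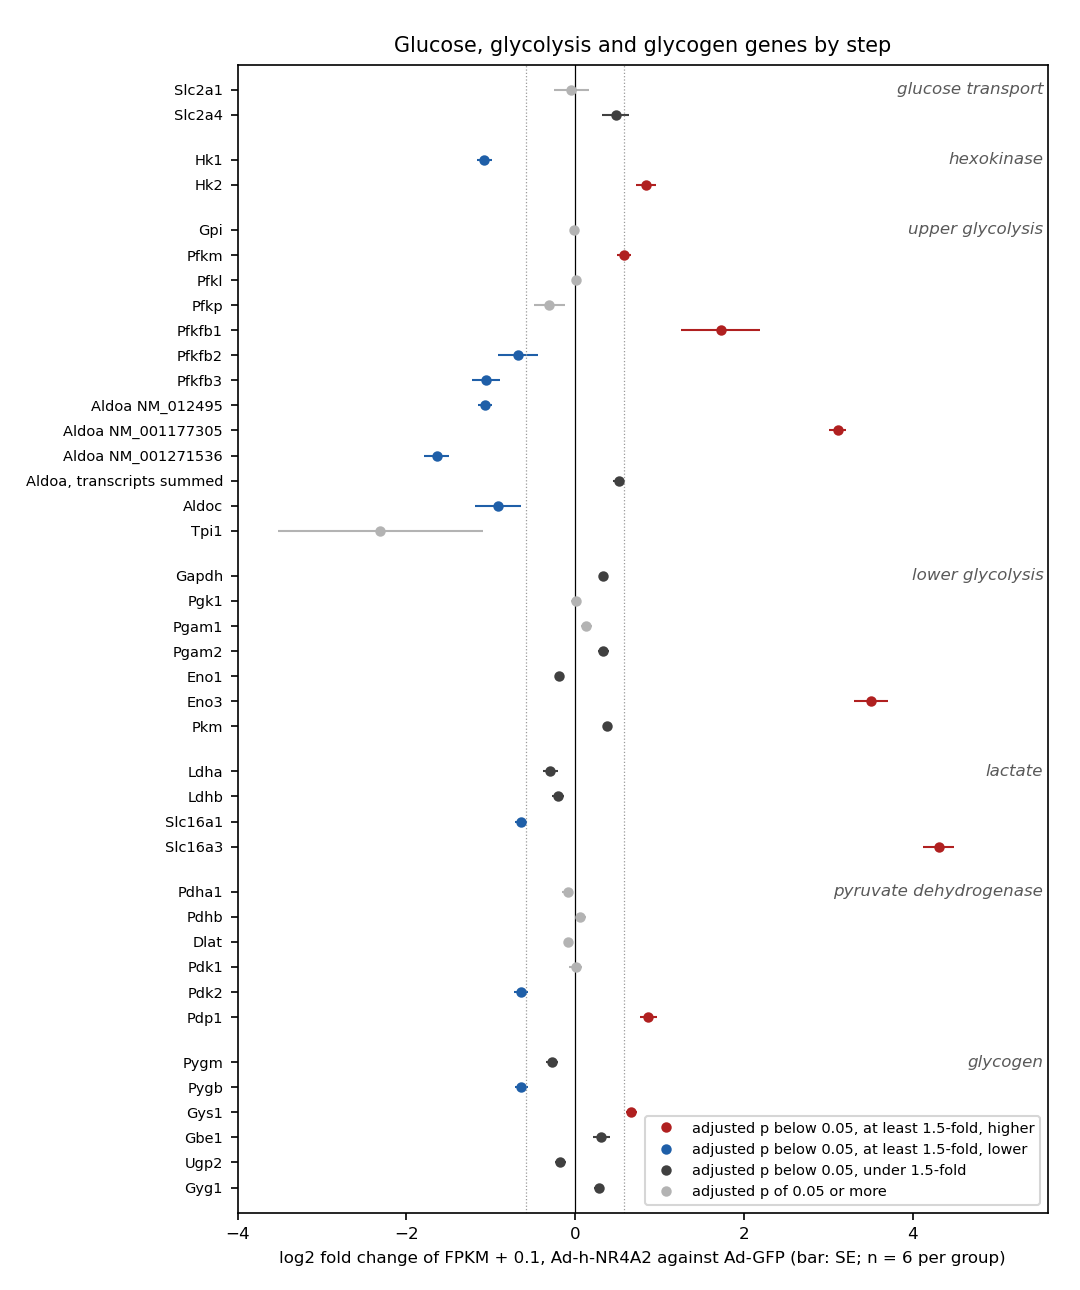
Log2 fold change of FPKM + 0.1 (limma estimate, x axis) for the 37 genes, ordered by step, with Aldoa shown by transcript and summed. Bars give the SE (n = 6 samples per group), dotted lines the log2 of 1.5, and colors the call: Slc16a3 (4.31), Eno3 (3.50) and Aldoa NM_001177305 (3.11) lie farthest to the right, and most other genes lie within 1.1 of 0.

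Of the glucose transporters, Slc2a4, which encodes the insulin-responsive GLUT4 and lies on chromosome 10 of Rn5, was at 62.5 to 128 FPKM in Ad-GFP samples (median 89.3) and at 95.9 to 171 with Ad-h-NR4A2 (median 122). The groups overlapped, yet it was higher in the Ad-h-NR4A2 sample of all 6 same-numbered pairs. The log2 fold change was 0.48 (SE 0.16, limma adjusted p = 0.0274), with a ratio of means of 1.38 that is short of the limit. The adjusted p was 0.0527 to 0.0583 when Ad-GFP 26, Ad-GFP 29, Ad-h-NR4A2 24 or Ad-h-NR4A2 25 was left out. With the sample number as a block in limma it was 4.13e-06. Slc2a1, the basal transporter GLUT1, was at 25.5 ± 8.18 (SD, n = 6) and 24.5 ± 7.11 FPKM, a log2 difference of -0.04 (SE 0.20, adjusted p = 0.888).

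The hexokinases changed in opposite directions. Hk1, the housekeeping form, was at 95.4 to 124 FPKM in Ad-GFP samples (median 113) and at 43.2 to 61.9 in Ad-h-NR4A2 samples (median 55.2). Hk2, the insulin-regulated muscle form, was at 30 to 47.5 FPKM (median 36.9) and at 54.3 to 80.4 (median 69.9). Neither gene had overlapping groups. Hk1 was downregulated by a log2 of -1.08 (SE 0.09, limma adjusted p = 4.84e-07) and Hk2 upregulated by 0.84 (SE 0.12, adjusted p = 7.33e-05). Hk2 made up 25% ± 3.02 (SD, n = 6) of the summed FPKM of both in Ad-GFP and 55.6% ± 2.34 in Ad-h-NR4A2 samples, so that Hk1 was the more abundant hexokinase transcript in all Ad-GFP samples and Hk2 in all Ad-h-NR4A2 samples. The sum of both was 151 ± 12.9 and 121 ± 16.4 FPKM, and these ranges overlapped.

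At the committed step, phosphofructokinase, the muscle subunit Pfkm was at 264 to 294 FPKM in Ad-GFP samples (median 274) and at 332 to 528 with Ad-h-NR4A2 (median 414). The groups did not overlap. Its log2 fold change was 0.57 (SE 0.08, limma adjusted p = 1.03e-04), and its ratio of means, 1.5025, stood at the limit. The highest value was that of Ad-h-NR4A2 24, without which the ratio was 1.42. It was 1.49 to 1.4994 without Ad-GFP 26, 28 or 29 or Ad-h-NR4A2 25 or 26, so that the call by fold change rests on single samples and the direction does not. The liver subunit Pfkl, at 18.0 ± 1.34 (SD, n = 6) and 18.2 ± 0.650 FPKM, had a log2 difference of 0.02 (SE 0.05, adjusted p = 0.855). The platelet subunit Pfkp, at 22.0 ± 6.27 and 17.5 ± 3.52 FPKM, was lower with Ad-h-NR4A2 in all 6 pairs, with an adjusted p of 0.206 that became 6.64e-04 with the sample number as a block. Pfkm was the main subunit in both groups, with 87.4% and 92.0% of the summed FPKM.

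The bifunctional 6-phosphofructo-2-kinases, encoded by 3 genes, set the level of the phosphofructokinase activator fructose 2,6-bisphosphate. All 3 genes were called (background 15.2%), 1 upward (background 7.94%) and 2 downward (background 7.24%). Pfkfb3, an inducible form with high kinase activity, was at 2.82 to 5.05 FPKM in Ad-GFP samples (median 4.28) and at 1.41 to 2.83 in Ad-h-NR4A2 samples (median 1.88), so that the groups overlapped by a single sample of each. It was lower in all 6 pairs, with a log2 fold change of -1.05 (SE 0.17, limma adjusted p = 2.30e-04), and 61 to 275 fragments per sample. Pfkfb2, the heart form, has 3 transcripts on chromosome 13. Its main transcript was at 3.67 to 6.58 FPKM (median 5.41) and at 1.93 to 5.38 (median 3.27), with overlapping groups, a fall in 4 of 6 pairs and a log2 fold change of -0.68 (SE 0.23, limma adjusted p = 0.0325). With each transcript tested by itself and the block, its adjusted p was 0.0657. In the fit across genes without the block, leaving out 1 of 7 samples took the adjusted p from 0.0325 to between 0.0542 and 0.0739. These samples were Ad-GFP 25, 27, 28 or 29, or Ad-h-NR4A2 25, 27 or 28. With the 3 transcripts summed, the groups did not overlap, at 7.52 to 11.0 FPKM (median 9.31) and 4.94 to 6.23 (median 5.61), and the log2 fold change was -0.74 (SE 0.10, limma adjusted p = 3.84e-05). Pfkfb1, the liver and skeletal muscle form, was barely expressed. Its 3 transcripts on chromosome X summed to 0.0376 to 0.139 FPKM (median 0.0616) in Ad-GFP and 0.450 to 1.03 (median 0.635) in Ad-h-NR4A2 samples, without overlap and with a log2 fold change of 2.15 (SE 0.20, limma adjusted p = 1.97e-06). The main transcript alone gave 1.72 (SE 0.47, adjusted p = 0.0101), with overlapping groups. The 3 genes together were at 13.6 ± 1.19 FPKM (SD, n = 6) in Ad-GFP and 8.20 ± 0.537 in Ad-h-NR4A2 samples.

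Aldoa, the muscle aldolase that splits fructose 1,6-bisphosphate, lies on chromosome 1 of Rn5 (chr1:205208255-205213461) and is listed with 3 transcripts, each with a start site of its own. The one most abundant over all samples, NM_012495, was at 2154 to 2431 FPKM in Ad-GFP samples (median 2229) and at 938 to 1336 in Ad-h-NR4A2 samples (median 1044). NM_001177305 was at 230 to 355 FPKM (median 315) and at 2349 to 3020 (median 2656). NM_001271536 was at 45.9 to 59.1 FPKM (median 54.2) and at 10.6 to 21.5 (median 18.7). No groups overlapped, and all 6 pairs agreed in direction for each. With each transcript tested by itself, the log2 fold change was 3.11 (SE 0.10, limma adjusted p = 1.06e-09) for NM_001177305, an 8.59-fold rise. It was -1.06 (SE 0.08, adjusted p = 1.51e-06) for NM_012495 and -1.64 (SE 0.15, adjusted p = 4.53e-06) for NM_001271536. The share of NM_001177305 in all Aldoa FPKM went from 11.7% ± 1.37 (SD, n = 6) to 70.5% ± 2.88, and that of NM_012495 from 86.2% ± 1.43 to 29% ± 2.84. Summed over transcripts, Aldoa was at 2491 to 2837 FPKM in Ad-GFP and 3419 to 4273 in Ad-h-NR4A2 samples, a rise of 0.52 on the log2 scale (SE 0.06, adjusted p = 1.78e-05) and 1.43-fold. The gene therefore counts as downregulated by its most abundant transcript and as higher by its sum. Cufflinks estimated how fragments divide between these transcripts, and that estimate was not tested.

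**Figure D2:**
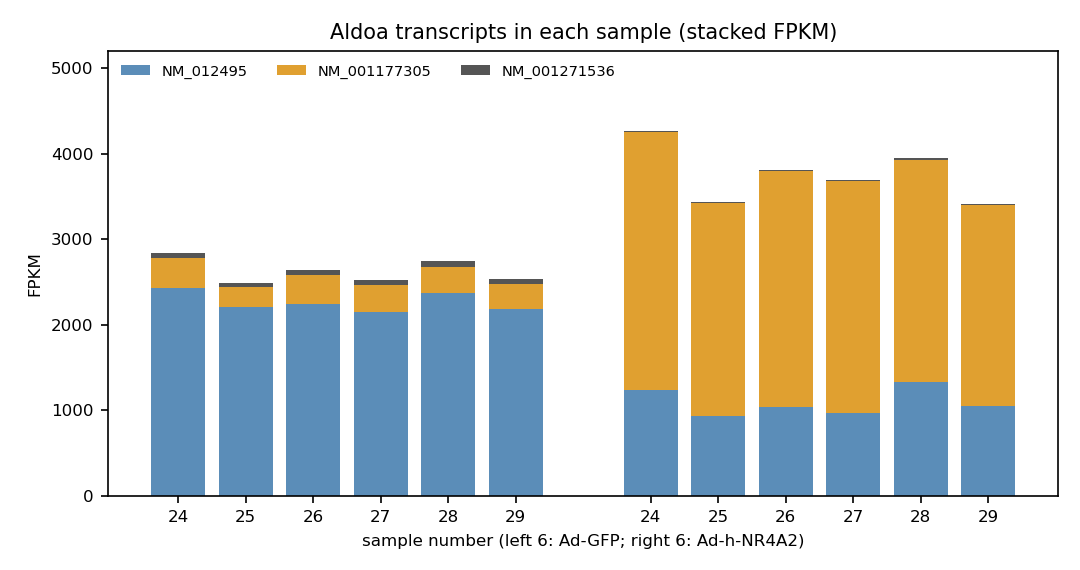
FPKM of the 3 Aldoa transcripts (y axis, stacked) in each of the 12 samples, with the sample number on the x axis. NM_012495 makes up most of each Ad-GFP bar and NM_001177305 most of each Ad-h-NR4A2 bar, and the whole bars are taller with Ad-h-NR4A2.

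Aldoc, the brain aldolase, was at 3.20 to 9.70 FPKM in Ad-GFP samples (median 5.36) and at 1.80 to 4.25 with Ad-h-NR4A2 (median 2.63). The groups overlapped, and it was lower in all 6 pairs (log2 fold change -0.91, SE 0.27, limma adjusted p = 0.0165). It was at most 0.388% of the FPKM of all Aldoa and Aldoc transcripts in any sample. Gpi, glucose 6-phosphate isomerase, had a log2 difference of -0.01 (SE 0.05, adjusted p = 0.896), at 314 and 312 FPKM. Tpi1, triose phosphate isomerase, could not be read in this way. It was at 163 to 337 FPKM in Ad-GFP samples, but Ad-h-NR4A2 samples 24 to 29 were at 458, 2.59, 479, 2.99, 121 and 118 FPKM in that order, on both sides of the Ad-GFP range (log2 difference -2.31, SE 1.21, adjusted p = 0.146). With Ad-h-NR4A2 its SD of 217 exceeded its mean of 197 FPKM, and whether its reads were shared with near-identical copies was not tested.

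Among the enzymes from glyceraldehyde 3-phosphate to pyruvate, 4 of 7 were higher (background 19.3%) and 1 lower (background 21.7%) at an adjusted p below 0.05, and 1 passed the 1.5-fold limit (background 15.2%). That gene was Eno3, the muscle enolase, on chromosome 10 of Rn5 (chr10:57023901-57029253). It was at 75.4 to 166 FPKM in Ad-GFP samples (median 127) and at 1030 to 1734 with Ad-h-NR4A2 (median 1210). These levels rest on 2113 to 5125 and 32885 to 60380 fragments. The lowest Ad-h-NR4A2 sample lay far above the highest Ad-GFP sample, and the log2 fold change was 3.50 (SE 0.20, limma adjusted p = 2.04e-08), an 11.1-fold ratio of means. Eno1, the ubiquitous enolase, was at 443 ± 28.6 (SD, n = 6) and 390 ± 27.5 FPKM and lower in all pairs (-0.18, SE 0.05, adjusted p = 0.0163). Eno3 was 21.0% ± 4.68 of the summed enolase FPKM in Ad-GFP and 77.0% ± 3.50 in Ad-h-NR4A2 samples, and the sum rose 3.06-fold, from 564 ± 59.4 to 1724 ± 288 FPKM.

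The other lower-glycolysis genes differed by less. Gapdh was at 5420 ± 199 (SD, n = 6) and 6851 ± 428 FPKM (0.34, SE 0.05, limma adjusted p = 2.31e-04), and is the most abundant of the 37. Pkm, pyruvate kinase, was at 968 ± 48.8 and 1264 ± 73.3 FPKM (0.38, SE 0.05, adjusted p = 3.08e-05), and the muscle phosphoglycerate mutase Pgam2 at 363 ± 33.2 and 457 ± 34.6 (0.33, SE 0.07, adjusted p = 0.00103). None of the 3 had overlapping groups, and each was higher by 1.26- to 1.30-fold. Pgk1, phosphoglycerate kinase, at 736 and 740 FPKM, had a log2 difference of 0.01 (SE 0.05, adjusted p = 0.937). Pgam1, the mutase of other tissues, at 154 and 169 FPKM, was higher in all 6 pairs, with an adjusted p of 0.122 that became 0.00216 with the sample number as a block. Gapdh has near-identical pseudogenes, with which its reads may be shared.

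**Figure D3:**
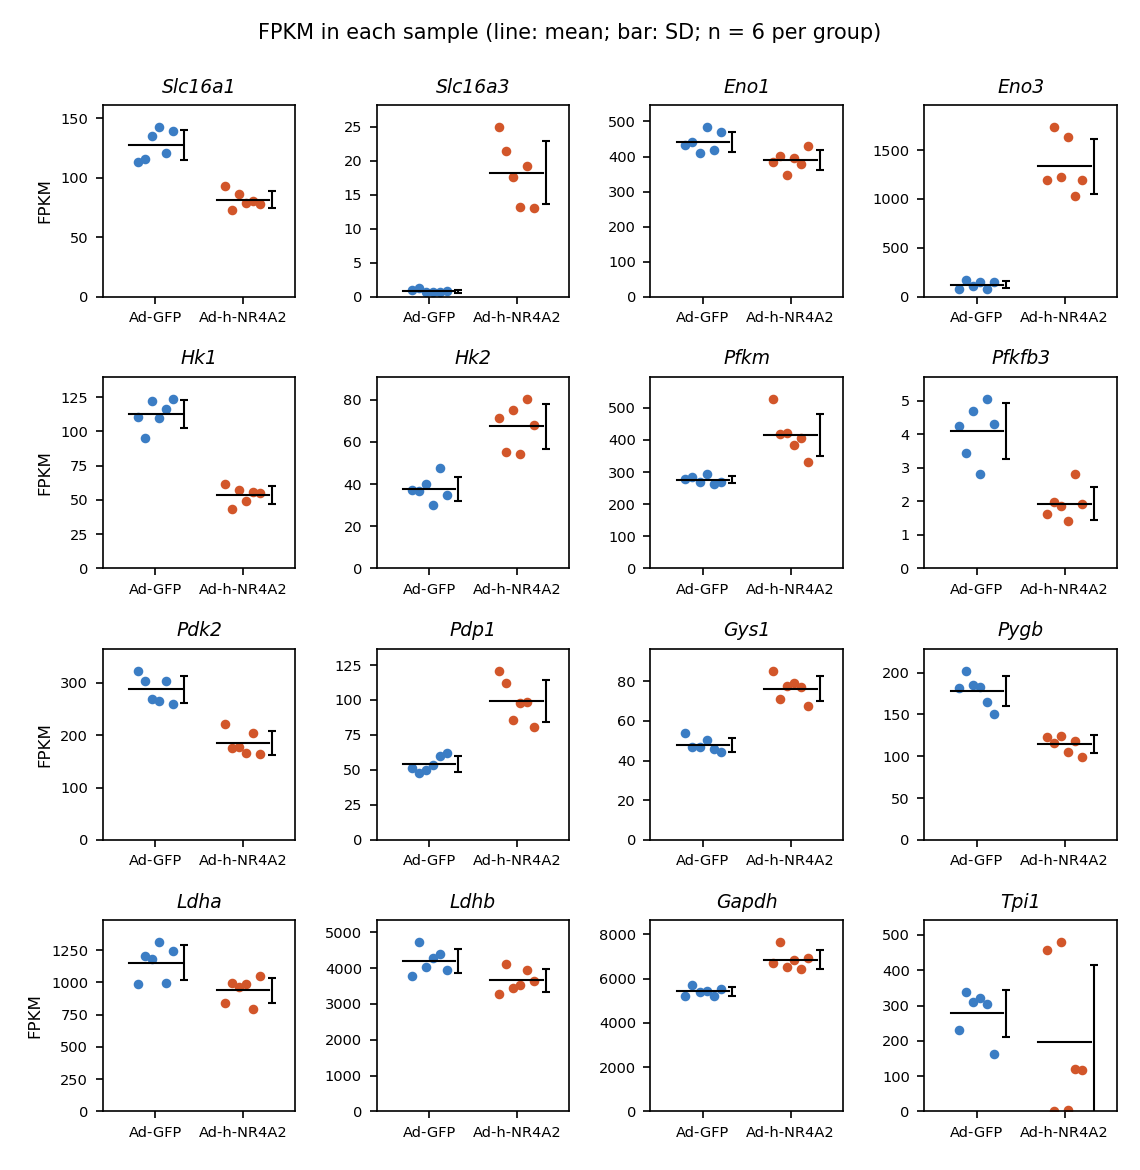
FPKM (y axis, from 0) of 16 of the genes in each sample, by group (points), with the mean (line) and SD (bar, n = 6). All Ad-h-NR4A2 points of Slc16a3 and Eno3 lie far above the Ad-GFP points, Hk1, Pdk2, Pygb and Slc16a1 separate in the other direction, and Ad-h-NR4A2 points of Tpi1 lie on both sides of the Ad-GFP points (its SD bar goes below 0 and is not drawn there).

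The monocarboxylate transporters, which carry lactate and pyruvate across the sarcolemma, showed the largest change of the 37 genes. Slc16a3, which encodes the low-affinity lactate exporter MCT4 of glycolytic cells (chr10:109727315-109735890 in Rn5), was at 0.631 to 1.23 FPKM in Ad-GFP samples (median 0.758) and at 13.1 to 24.9 in Ad-h-NR4A2 samples (median 18.4). This corresponds to 27 to 45 and 563 to 1144 fragments per sample, without overlap. Its log2 fold change was 4.31 (SE 0.18, limma adjusted p = 1.50e-09), and the ratio of means 22.2. Slc16a1, the widely expressed MCT1, was at 113 to 142 FPKM (median 128) and at 72.4 to 92.9 (median 79.7), also without overlap, and was downregulated (-0.65, SE 0.07, adjusted p = 1.06e-05). Slc16a3 was 0.655% ± 0.231 (SD, n = 6) of their summed FPKM in Ad-GFP and 18.2% ± 3.55 in Ad-h-NR4A2 samples, so that Slc16a1 remained the more abundant of both. The lactate dehydrogenases were slightly lower. Ldha, the muscle subunit, was at 1153 ± 134 and 939 ± 99.0 FPKM (-0.30, SE 0.09, adjusted p = 0.0151) and Ldhb, the heart subunit, at 4195 ± 340 and 3657 ± 317 (-0.20, SE 0.07, adjusted p = 0.0366). The adjusted p of Ldhb was 0.0607 with no filter on low values and 0.0604 to 0.0792 with 1 of 7 single samples left out. With the sample number as a block in limma it was 4.17e-04. Both genes were lower in all 6 pairs with overlapping groups, and the share of Ldhb was 78.4% and 79.5%.

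Of the pyruvate dehydrogenase complex itself, Pdha1, Pdhb and Dlat, which encode 2 subunits of the E1 enzyme and the E2 enzyme, had log2 differences of -0.09, 0.06 and -0.08, with adjusted p of 0.295, 0.499 and 0.214 from limma. With the sample number as a block these became 0.0109, 0.0351 and 0.0354, with the same differences. Of its regulators among the 37 genes, Pdk2 and Pdp1 were called and Pdk1 was not. Pdk2, a kinase that inactivates it, was at 260 to 324 FPKM in Ad-GFP samples (median 287) and at 164 to 221 in Ad-h-NR4A2 samples (median 177). Pdp1, a phosphatase that reactivates it, was at 47.8 to 62.0 FPKM (median 52.5) and at 80.7 to 121 (median 98.3). Neither gene had overlapping groups, with a log2 fold change of -0.64 (SE 0.08, limma adjusted p = 2.62e-05) for Pdk2 and 0.87 (SE 0.10, adjusted p = 1.11e-05) for Pdp1. Both Pdp1 transcripts rose, the lesser one from 7.36 ± 2.29 (SD, n = 6) to 16.4 ± 1.62 FPKM. Pdk1, a second kinase, was at 181 ± 15.6 and 182 ± 19.2 FPKM (0.01, SE 0.08, adjusted p = 0.959), and Pdk1 and Pdk2 summed to 469 ± 27.9 and 367 ± 14.3 FPKM without overlap between groups. Of the kinases outside the 37 genes, added here after their values were seen, Pdk4 was at 200 ± 31.1 and 161 ± 32.9 FPKM and lower in all 6 pairs, with an adjusted p of 0.07 that became 0.00164 with the sample number as a block. Pdk3 was at 1.84 ± 0.210 and 2.12 ± 0.351 FPKM and higher in all 6 pairs, with an adjusted p of 0.247 that became 0.0408 with the block.

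The 6 glycogen genes had an adjusted p below 0.05, 3 higher and 3 lower (background 40.9% in either direction), but Ugp2 lost this under several alternatives. Those of synthesis were higher and those of breakdown lower, but for Ugp2, which was lower. Gys1, muscle glycogen synthase, was at 44.3 to 53.7 FPKM in Ad-GFP samples (median 46.9) and at 67.5 to 85.4 in Ad-h-NR4A2 samples (median 77.4). Pygb, brain glycogen phosphorylase, was at 151 to 202 FPKM (median 182) and at 98.6 to 125 (median 117). The groups were separate for both genes, with a log2 fold change of 0.67 (SE 0.06, limma adjusted p = 1.97e-06) for Gys1 and -0.64 (SE 0.07, adjusted p = 1.76e-05) for Pygb. Changes under 1.5-fold were those of glycogenin Gyg1 (0.28), the branching enzyme Gbe1 (0.31), the muscle phosphorylase Pygm (-0.27) and the UDP-glucose pyrophosphorylase Ugp2 (-0.18, adjusted p = 0.0488). The adjusted p of Ugp2 was 0.0612 with no filter on low values, 0.0719 without trend, and 0.0524 to 0.101 with 1 of 8 single samples left out. With the sample number as a block in limma it was 0.0023. Pygm was at 715 ± 32.0 (SD, n = 6) and 596 ± 72.8 FPKM and was the main phosphorylase in both groups. The share of Pygb was 19.9% ± 1.62 and 16.2% ± 0.878, without overlap.

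**Figure D4:**
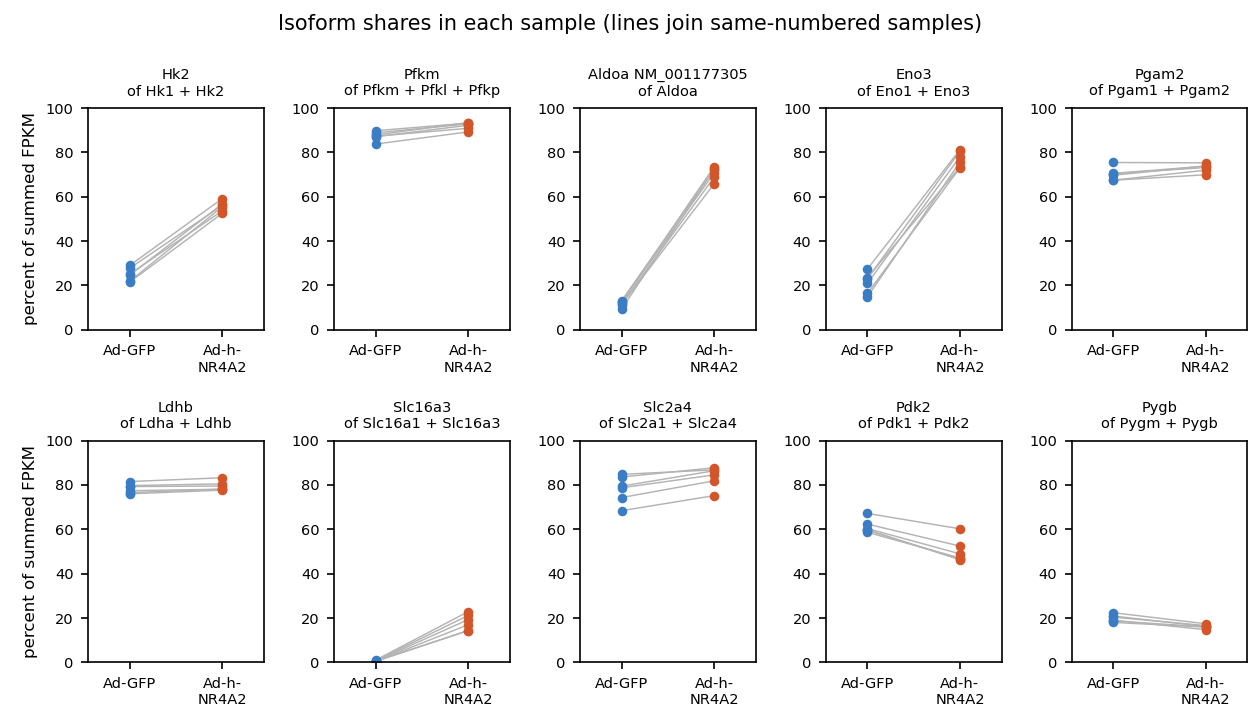
FPKM of an isoform as percent of the summed FPKM of its step (y axis) in each sample, with same-numbered samples of both groups joined. The shares of Hk2, Eno3, Slc16a3 and Aldoa NM_001177305 rise in all 6 pairs without overlap between groups, that of Ldhb (means of 78.4% and 79.5%) rises in all pairs with overlap, that of Pgam2 (70.2% and 73.0%) in 5 of 6, and those of Pdk2 and Pygb fall in all pairs.

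Seen by isoform, the groups were separate for the shares of Hk2, Eno3, Slc16a3, Pfkl, Pygb and each Aldoa transcript. They overlapped but moved one way in all 6 pairs for Slc2a4 (78.2% and 83.8%), Pfkm and Ldhb, which were higher, and for Pfkp (6.91% and 3.96%) and Pdk2 (61.3% and 50.3%), which were lower. Pgam2 (70.2% and 73.0%) was higher in 5 of 6 pairs. By their most abundant transcripts, the share of Aldoc went both ways among pairs, as did those of the Pfkfb genes. With transcripts summed, the mean share differed by 7.82 percentage points for Pfkfb1, -1.14 for Pfkfb2 and -6.67 for Pfkfb3. By the most abundant transcripts these differences were 7.24, 2.00 and -9.24. The other shares between genes use the most abundant transcript of each gene, and all were described and not tested.

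A further 70 genes of glucose metabolism were examined in the same comparison, of which 59 could be tested, 7 were listed at 0 in at least 1 sample, and 4 names were not found. Of the 59, 16 were called, 10 upregulated and 6 downregulated, beside the backgrounds of 15.2%, 7.94% and 7.24% given above. Without the 1.5-fold limit 32 had an adjusted p below 0.05 (background 40.9%). Their median log2 fold change was 0.07. The largest rise was that of Gys2, the glycogen synthase known from liver, at 0.0304 to 0.133 FPKM with Ad-GFP (2 to 9 fragments per sample) and at 3.45 to 5.28 with Ad-h-NR4A2 (189 to 347 fragments per sample). The groups were separate, with a log2 fold change of 4.83 (SE 0.17, limma adjusted p = 1.91e-10). Gys1 was more abundant in both groups. Of the 56 further genes with a promoter window, Gys2 was the only one with an NBRE. That is 1 of their 59 windows, beside 1.43% of all windows, and a link to the rise was not tested. Of the 37 genes the one with an NBRE, Pfkfb2, was downregulated. Slc2a12, an insulin-regulated glucose transporter of muscle and fat, rose from 3.53 to 4.79 FPKM (median 4.68) to 21.1 to 31.4 (median 25.9), a log2 fold change of 2.53 (SE 0.11, limma adjusted p = 2.36e-09).

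Pdp2, the other pyruvate dehydrogenase phosphatase, rose as Pdp1 did, from 18.4 ± 2.02 (SD, n = 6) to 41.6 ± 8.70 FPKM (1.15, SE 0.12, limma adjusted p = 7.30e-06). Of the hexosamine pathway, which makes the sugar donor for protein O-GlcNAc, Gfpt2 (1.79), Uap1 (1.03) and Pgm3 (0.86) were upregulated, each without overlap between groups, while Gfpt1 and Ogt were not called. Gfpt2 was low, at 0.287 ± 0.0396 and 1.30 ± 0.459 FPKM. Mlxipl, the glucose-responsive transcription factor ChREBP, rose from 6.81 ± 0.821 to 14.9 ± 1.76 FPKM (1.12, SE 0.09, adjusted p = 6.49e-07). Txnip and Arrdc4, arrestin-like inhibitors of glucose uptake that are known targets of ChREBP and its relatives, were lower. Txnip was at 66.8 to 203 FPKM (median 92.2) in Ad-GFP and at 32.0 to 68.5 (median 56.4) in Ad-h-NR4A2 samples, with little overlap and a fall in all 6 pairs (-1.04, SE 0.27, adjusted p = 0.00675). Arrdc4 was at 3.17 ± 0.736 and 1.97 ± 0.340 FPKM (-0.64, SE 0.16, adjusted p = 0.00515).

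The remaining called genes named here were of low or moderate level. Phkg1, the muscle catalytic subunit of phosphorylase kinase, was upregulated (1.06, SE 0.19, limma adjusted p = 6.63e-04), as was Fbp1, the fructose bisphosphatase of liver, with an adjusted p of 0.0498 at 1.31 FPKM in Ad-GFP samples. Lower were the pyruvate transporter gene Slc16a7 (-1.05), at 0.666 and 0.266 FPKM, Pgm2l1 (-0.82), which makes glucose 1,6-bisphosphate, the transketolase Tkt (-0.67), at 26.1 and 16.4 FPKM, and Phka2 (-0.62, adjusted p = 0.0444), a regulatory subunit of phosphorylase kinase. Leaving out single samples took the adjusted p of Fbp1 and Phka2 above 0.05 in 9 and 8 of 12 cases, as did a pseudocount of 1 (0.0540 and 0.0527) and, for Fbp1, the TPM scale (0.0573). With the sample number as a block in limma the adjusted p was 3.28e-04 for Fbp1 and 0.00117 for Phka2.

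**Figure D5:**
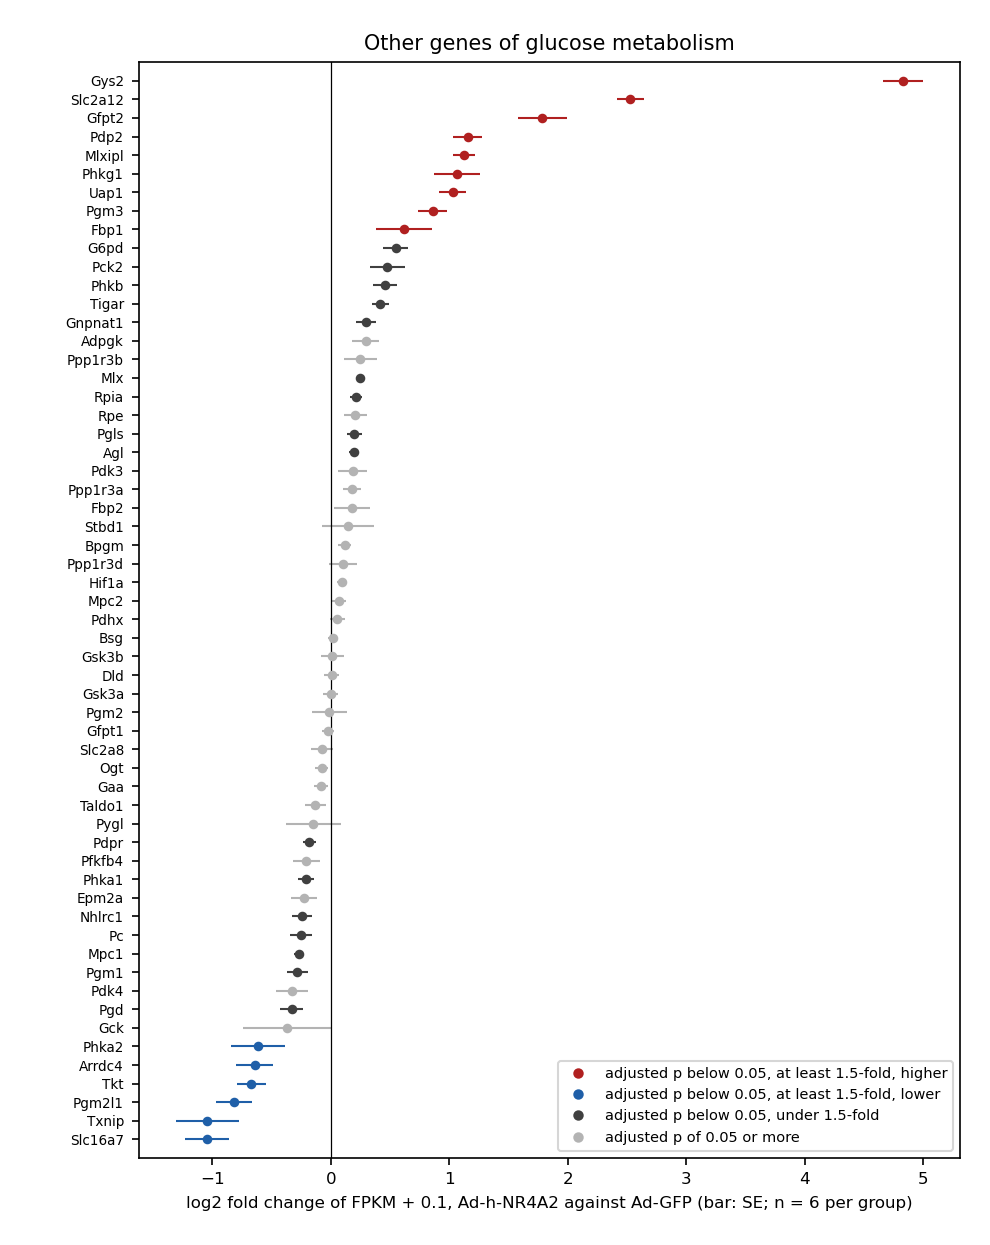
Log2 fold change of FPKM + 0.1 (limma estimate, x axis) for the other genes of glucose metabolism that could be tested, but for 1 that is not shown, ordered by value, with SE bars (n = 6 samples per group) and colors by call. Gys2 (4.83) and Slc2a12 (2.53) lie apart from the rest at the top, and the 6 downregulated genes lie between -0.62 and -1.05 at the bottom.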

How the data were processed

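RNA of 12 ARVM samples was sequenced in 1 run, and paired reads of stranded mRNA libraries were aligned by the authors with STAR (build Rn5). Cufflinks gave FPKM for each RefSeq transcript. The FPKM deposited by the authors are normalized to transcript length and mapped fragments and are not counts. Their confidence limits equal the FPKM itself in 225016 of 225024 values and were not used. Values below 1e-06 were taken as above 0. Depths were inferred from values worth up to 6 fragments, of which 99.4% to 99.9% were whole numbers of fragments within 0.05 once fragment length was allowed for. Fragment numbers are given for genes with 1 transcript, and cover counting error only.

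Groups come from the labels. For a gene with several transcripts the most abundant one over all samples was used. The 10950 genes with no value of 0 were fitted on log2(FPKM + 0.1) with limma 3.58.1 in R 4.3.3 (eBayes with trend, no block, as in the study's unpaired statistics), two-sided, with Benjamini-Hochberg adjustment over all genes tested. The pseudocount understates changes of low genes. An exact two-sided permutation test over all 924 splits into 6 and 6 can give no p below 0.00216, which it gave for the genes whose groups did not overlap. Shares were computed per sample in Python 3.11.15. On simulated data with 200 of 10950 genes changed by a log2 of 1.5, 194 had an adjusted p below 0.05 in the right direction. Of the other genes, 11 had an adjusted p below 0.05. The 1.5-fold limit was not applied there, and samples were simulated as independent, without pairs. Both groups carry the sample numbers 24 to 29, and the study describes 6 experiments with cells of different rats. Deviations from the group means of same-numbered samples correlated at 0.347 to 0.623, so the numbers were taken as pairs. Pairs served as a block in an alternative and to count directions, and the unblocked fit was kept as main.

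The genes, the further pathway list, the markers and the tests were chosen with earlier results of these data known. All of the 37 genes are named, and the further genes where called, but for 1 that is not reported here. Alternatives were pseudocounts of 1 and 0.01, other filters, the TPM scale, quantile normalization, no trend, the block, summed transcripts, fold changes from the limma coefficient and each sample left out. Added after seeing the data were each transcript by itself, values below 1e-06 as 0, and Aldoa summed under further alternatives.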

Additional observations from a re-analysis of the deposited data

Results flagged for a closer look

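In 4 of 112 groups examined, 1 sample of 6 lay far from the others relative to the range of its group, where chance gives about 1 in 20. Slc2a1 was at 38.4 FPKM in Ad-h-NR4A2 sample 28, against 18.0 to 23.9 in the other 5 samples. Ad-h-NR4A2 sample 24 was the sample set apart in the remaining 3. There Pdk1 was at 146 FPKM against 184 to 203, Gyg1 at 644 against 502 to 546, and Mlxipl at 18.2 against 13.2 to 15.1. This sample also had the highest Pfkm value. Leaving it out changed the call of Pfkm by its ratio, and Gyg1, Mlxipl and Pdk1 stayed on their side of an adjusted p of 0.05 without it.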

How the results depend on the processing

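Of 1088 single-gene values under an alternative, 1002 kept their direction and their side of an adjusted p of 0.05, 56 lost it, 6 gained it and 24 changed direction. The number of the 37 genes called was 13 to 15 over samples left out and 14 or 15 otherwise. With the replicate block (paired fit) 15 were called and 31 had an adjusted p below 0.05, and Pfkp, Pgam1, Pdha1, Pdhb and Dlat were the 5 gained.

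Changes of direction were those of Aldoa with transcripts summed (0.516), and of genes near 0. On the TPM scale the log2 value was -0.004 for Pfkl, -0.013 for Pgk1 and -0.013 for Pdk1, and with quantile normalization -0.014 for Pgk1 and -0.03 for Pdk1. With single samples left out, values ranged from -0.181 to 0.101 for Slc2a1, -0.044 to 0.021 for Gpi, -0.01 to 0.045 for Pfkl, -0.022 to 0.036 for Pgk1 and -0.032 to 0.069 for Pdk1. The median of the 37 genes ranged from -0.044, without Ad-h-NR4A2 24, to -0.002 with single samples left out. Under the other alternatives this median was -0.03 to 0.006, the latter with transcripts summed. The share of Aldoc among aldolases differed by -0.142 percentage points with transcripts summed, by 0.0143 with the most abundant transcripts, and by -0.0228 to 0.0512 with single samples left out. That of Pfkfb2 among the Pfkfb genes differed by -1.14, by 2.00 and by -0.426 to 6.93 in the same order. TPM and quantile normalization moved the median of all genes to -0.043 and -0.037.

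Pfkm fell below 1.5-fold on the TPM scale (1.49), by the limma coefficient, and without any 1 of Ad-GFP 26, 28 and 29 and Ad-h-NR4A2 24, 25 and 26 (1.42 to 1.4994). The adjusted p of Ldhb was 0.0604 to 0.0792 without any 1 of Ad-GFP 25, 27 and 28 and Ad-h-NR4A2 24, 26, 27 and 29 (no filter on low values 0.0607), and that of Ugp2 0.0524 to 0.101 without any 1 of Ad-GFP 25 to 29 and Ad-h-NR4A2 24, 25 and 28 (no filter 0.0612, without trend 0.0719). The adjusted p rose above 0.05 (Fbp1 0.0574 to 0.100, Phka2 0.0618 to 0.0922) with any 1 sample left out except Ad-GFP 28 and Ad-h-NR4A2 24 and 26 for Fbp1 and Ad-GFP 24 and 28 and Ad-h-NR4A2 26 and 27 for Phka2. Of the further pathway genes 13 to 17 were called over all alternatives. The cause was not tested. Low FPKM limit Pfkfb1, Gys2 and Gfpt2 in Ad-GFP samples.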
